A study of Homo sapiens with 6 samples.

Results

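The 10 apolipoprotein genes examined here are APOA1, APOA2, APOA4, APOB, APOC1, APOC2, APOC3, APOE, APOH and APOM, taken by platform gene symbol from the 18132 genes of the array. They were read by 24 of the 49293 probe sets that are not controls. A further 3 probe sets list APOC2 together with a neighbouring gene and were kept apart. The arrays measured transcripts in Huh7, an established human hepatocellular carcinoma line that was growing logarithmically. Of the 6 arrays, 3 hold RNA of cells labelled KCa3.1 silenced, whose genotype label is KCa3.1 knockdown, and 3 hold RNA of cells labelled control. KCa3.1 is a calcium-activated potassium channel encoded by KCNN4, and the comparison asks how transcripts differ once it is depleted. The labels give no silencing agent and no control construct, and they do not say that replicates were separate cultures, so the p-values rest on a spread between arrays that may be technical.

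Apolipoproteins are the protein part of lipoproteins, the particles that carry cholesterol, triglyceride and phospholipid in blood. Hepatocytes load lipid onto APOB to build very low density lipoprotein and release APOA1 and APOA2, the main proteins of high density lipoprotein. The smaller apolipoproteins move between particles, where they activate or inhibit lipases and steer uptake by receptors. Hepatoma lines such as Huh7 are widely used to study this secretion.

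The values are log2 intensities that had been centred near 0 for each probe set, so they show differences between arrays and not how abundant a transcript was. The medians of the 6 arrays were all 0.0, and at least 1 exact 0 occurred in 80.6% of probe sets. The channel gene itself did not bear out the labels. KCNN4 stood at -0.054, 0.089 and 0.011 in the arrays labelled silenced, against -0.006, 0.126 and -0.073 in the control arrays. The groups overlapped, with a 95% interval of the difference from -0.157 to 0.156 (limma adjusted p = 0.999). Centred values do not show whether its 3 probe sets read above background, where a loss of transcript could be seen. Every direction given here is therefore between arrays as labelled.

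In the arrays labelled silenced, 3 of the 10 apolipoprotein genes were higher (APOA1, APOA2 and APOB), 1 was lower (APOH) and 6 did not pass the test. A gene was called at an adjusted p under 0.05 in limma's moderated test, adjusted by the Benjamini-Hochberg method over all genes. Over all 18132 genes 13.3% were called, 7.14% higher and 6.19% lower. The 10 genes were chosen with earlier results of these data known, so an excess over the shares of all genes is no test of them. The median log2 change of the 10 genes was 0.078, against -0.006 over all genes. Silenced and control arrays were fully separated in 6 of the 10 genes, 4 with the silenced arrays above and 2 with them below, where 29.3% of all genes were separated, 15.0% above and 14.4% below. A change of 2-fold or more was reached by APOA1 and APOA2, that is 2 of the 10 genes, and by 0.651% of all genes. Without control replicate 1 the count of lower genes was 2, because APOC2 joined APOH, and the 3 higher genes stayed at 3 whichever array was left out.

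**Figure D1:**
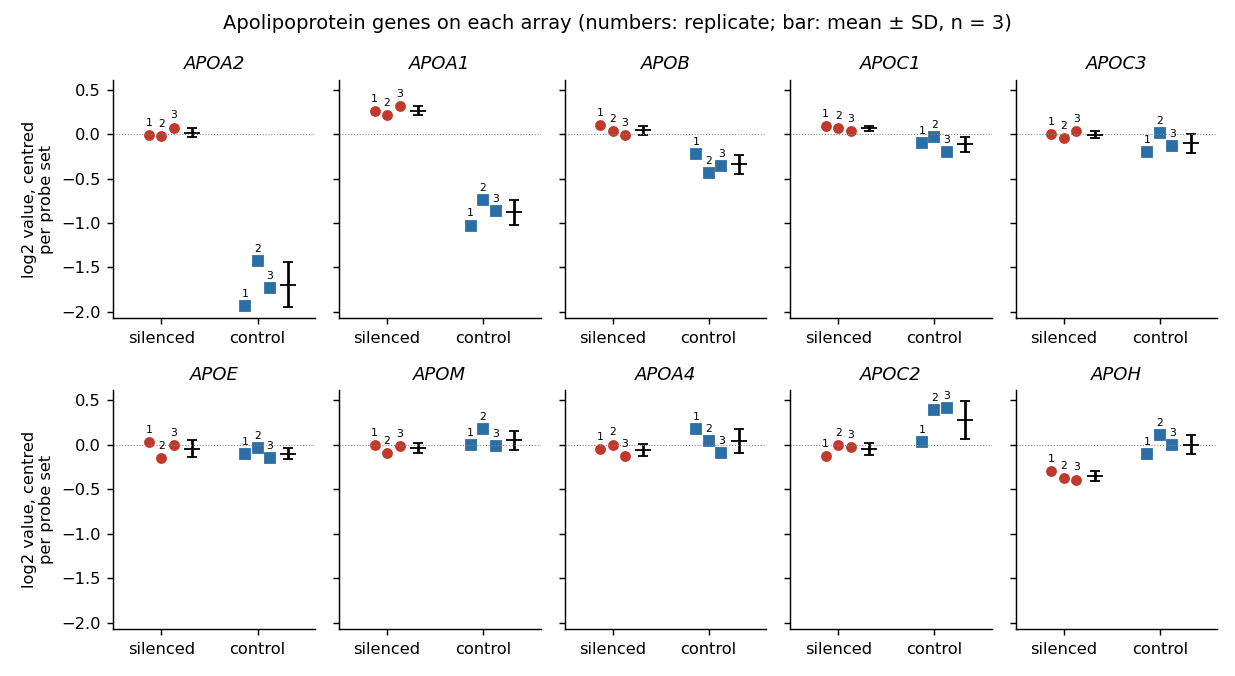
Centred log2 value of each of the 10 genes (vertical axis) on the 3 arrays labelled KCa3.1 silenced (red circles) and the 3 control arrays (blue squares), with replicate numbers and the mean ± SD beside each group. APOA2 and APOA1 are set far apart between the groups, APOB, APOC1, APOC2 and APOH are separated by less, and the groups of APOC3, APOE, APOM and APOA4 overlap.

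APOA2 encodes the second most abundant protein of high density lipoprotein (Entrez gene 336, chromosome 1). It stood at -0.004, -0.021 and 0.075 in the arrays labelled silenced, against -1.929, -1.423 and -1.731 in the control arrays. All silenced arrays lay near the baseline and all control arrays far below it, with control replicate 1 the lowest. Transcript was 3.28-fold higher (log2 change 1.71 with SE 0.113, adjusted p = 2.74e-05 by limma), the 13th largest rise of all genes on the array. Its 3 probe sets gave log2 changes between 1.68 and 1.74, and each passed the test on its own. Leaving out any array kept the change between 1.59 and 1.85.

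APOA1 encodes the structural protein of high density lipoprotein and the activator of lecithin-cholesterol acyltransferase (Entrez gene 335, chromosome 11). Its values were 0.261, 0.211 and 0.313 in the arrays labelled silenced, and -1.028, -0.746 and -0.86 in the control arrays. As with APOA2, control replicate 1 was the lowest and control replicate 2 the highest of the controls, and the groups stayed well apart. The gene was 2.2-fold higher (log2 change 1.14 with SE 0.077, adjusted p = 3.01e-05 by limma) and ranked 42nd among all rises. Its 6 probe sets spanned only 1.11 to 1.18 on the log2 scale, and all 6 were called. Each ends in _x_at, the type whose probes can match other transcripts, or in _s_at, and none in plain _at or _a_at. The 95% interval of the APOA2 change, 1.456 to 1.967, lay above that of APOA1, 0.966 to 1.313.

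The stretch of genome around the transcription start of APOA2 is shown because this gene moved most, and that of APOH because it was the one called in the other direction. Each run holds 250 bases before the start site and 50 from it onward, on the minus strand, from RefSeq on GRCh38.p14, at chr1:161223579-161223878 for APOA2 and chr17:66229366-66229665 for APOH. Capitals mark matches, on either strand, to the searched motifs. These were the TATA box as TATAAA or as TATATA, the CCAAT box, the GC box GGGCGG, the forkhead motif GTAAACA, the E box CACGTG, and, for hepatocyte nuclear factors 1 and 4, part of their recognition sequences, GTTAAT and CAAAGTCC.
APOA2: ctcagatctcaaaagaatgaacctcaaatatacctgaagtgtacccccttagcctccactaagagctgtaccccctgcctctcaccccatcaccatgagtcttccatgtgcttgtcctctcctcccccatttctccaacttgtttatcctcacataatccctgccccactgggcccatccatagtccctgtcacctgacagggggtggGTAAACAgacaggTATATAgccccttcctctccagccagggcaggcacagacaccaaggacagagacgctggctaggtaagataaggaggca
APOH: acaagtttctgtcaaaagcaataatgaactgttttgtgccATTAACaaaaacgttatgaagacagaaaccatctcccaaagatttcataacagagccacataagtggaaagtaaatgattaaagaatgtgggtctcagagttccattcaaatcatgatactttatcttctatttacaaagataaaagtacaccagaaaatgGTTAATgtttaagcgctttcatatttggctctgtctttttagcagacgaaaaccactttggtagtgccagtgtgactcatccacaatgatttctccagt
The APOA2 run holds TATATA, a variant of the TATA box, whose first base lies at -29 from the start, and GTAAACA, letters bound by forkhead factors such as the FOXA proteins, at -42. These letters occurred in 4.3% and 3.4% of 27305 promoters of the same length. The APOH run holds GTTAAT, part of the recognition sequence of hepatocyte nuclear factor 1, at -49 and, on the opposite strand, at -210. That motif was in 6.9% of all promoters. Neither run held any other of the searched motifs, and none of the matched letters overlapped. RefSeq promoters of 7 of the 10 genes were matched by symbol. Among the others, APOC2 had TATAAA at -30 and CAAAGTCC at -92 on the opposite strand, letters found in 12% and 1.2% of promoters, APOC1 had GGGCGG at -15 on the opposite strand, and APOA4 and APOM had no match to the searched letters. APOE, taken at its first listed start, had CCAAT at -27 and GGGCGG at -72, both on the opposite strand, and GGGCGG again at -51. These are common letters, with GGGCGG in 44.6% and CCAAT in 35.7% of promoters. A match is a run of letters and no measured binding.

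APOB encodes the large scaffold protein of very low and low density lipoprotein (Entrez gene 338, chromosome 2). It stood at 0.102, 0.031 and -0.007 in the arrays labelled silenced, and at -0.219, -0.433 and -0.363 in the control arrays. The groups did not overlap, and control replicate 1 was the one nearest to the silenced arrays, the reverse of its place for APOA1 and APOA2. The gene was 1.3-fold higher (log2 change 0.38 with SE 0.069, adjusted p = 0.00643 by limma). Of its 4 probe sets 3 were called, with log2 changes from 0.39 to 0.46. The fourth, the only one with the plain _at suffix, had a change of 0.21 and overlapping groups (SE 0.093, limma adjusted p = 0.223).

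APOH encodes beta-2-glycoprotein I, a plasma protein that binds phospholipid and is the antigen of antiphospholipid antibodies (Entrez gene 350, chromosome 17). Its single probe set read -0.289, -0.371 and -0.39 in the arrays labelled silenced, against -0.104, 0.113 and 0.0 in the control arrays. Every silenced array lay below every control array. Transcript was 1.28-fold lower (log2 change -0.35 with SE 0.068, adjusted p = 0.00898 by limma). The gene-level call held whichever array was left out, with changes between -0.41 and -0.30 and adjusted p-values between 0.00745 and 0.0422. Adjusted over all probe sets instead, the same values were not called without silenced replicate 2 or 3 or control replicate 2 or 3.

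The C apolipoproteins are small exchangeable proteins that act on lipases. APOC1, an inhibitor of lipoprotein uptake and of cholesteryl ester transfer, stood at 0.088, 0.064 and 0.041 in the arrays labelled silenced, against -0.103, -0.033 and -0.2 in the control arrays. The groups did not overlap, yet the mean of its 5 probe sets did not pass (log2 change 0.18 with SE 0.060, adjusted p = 0.0965 by limma). The probe sets differed among themselves: 2 were called, with changes of 0.29 and 0.27, and 3 were not, with changes of 0.25, 0.18 and -0.10. APOC2, the cofactor that lipoprotein lipase needs, read -0.125, 0.0 and -0.024 in the arrays labelled silenced, against 0.037, 0.39 and 0.413 in the control arrays. All silenced arrays lay below all control arrays, but control replicate 1 lay close to them. The change of -0.33 did not pass (SE 0.099, limma adjusted p = 0.0625).

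The call of APOC2 changed with the arrays and probe sets used. Without control replicate 1 the change was -0.45 and passed (limma adjusted p = 0.00409), while with any other array left out the gene did not pass, with changes from -0.35 to -0.26. Another 3 probe sets list APOC2 together with its neighbour APOC4 or their read-through transcript, so they cannot be assigned to a single gene. In 2 of them the silenced arrays were lower, by 0.41 on the log2 scale each (limma adjusted p = 0.0221 and 0.0435), and in the other the change was -0.11 with overlapping groups. Averaging all 3 with the APOC2 probe set, an alternative chosen after the values were seen, gave a change of -0.32 that passed with all 6 arrays (SE 0.066, limma adjusted p = 0.0135). APOC3, an inhibitor of lipoprotein lipase and of the clearance of triglyceride-rich particles, stood at 0.0, -0.048 and 0.032 in the arrays labelled silenced, against -0.197, 0.016 and -0.129 in the control arrays. The groups overlapped through control replicate 2, and the change of 0.10 did not pass (95% interval -0.054 to 0.25, limma adjusted p = 0.441).

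APOE, the ligand through which remnant particles bind hepatic receptors, read 0.028, -0.153 and 0.0 in the arrays labelled silenced, against -0.106, -0.037 and -0.151 in the control arrays. The groups overlapped, and the change was 0.06 with a 95% interval of -0.094 to 0.207 (limma adjusted p = 0.698). APOA4, an apolipoprotein made mainly by the intestine, stood at -0.05, 0.004 and -0.13 in the arrays labelled silenced, against 0.176, 0.047 and -0.087 in the control arrays. APOM, a lipocalin of high density lipoprotein that carries sphingosine-1-phosphate, read 0.0, -0.096 and -0.01 in the arrays labelled silenced, against 0.0, 0.178 and -0.014 in the control arrays. Groups overlapped for both genes, with changes of -0.10 (95% interval -0.276 to 0.068, limma adjusted p = 0.479) and -0.09 (95% interval -0.244 to 0.064, limma adjusted p = 0.498). These intervals bound the change of each, and a missed threshold does not show that the levels were alike.

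Ordered by change, the genes ran from APOA2 and APOA1 through APOB, APOC1, APOC3, APOE, APOM, APOA4 and APOC2 to APOH. Only the first steps of that order were separated by their 95% intervals, APOA2 from APOA1 and APOA1 from APOB. Every later neighbour in the order had an interval that overlapped the next. The control arrays had the wider SD in 9 of the 10 genes, against 57% of all genes. For APOA2 the SD was 0.051 in the arrays labelled silenced and 0.255 in the control arrays (n = 3 each).

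Taken probe set by probe set, 14 of the 24 were higher, 1 was lower and 9 missed the threshold, where 10.7% of all probe sets were called, 5.82% higher and 4.85% lower. The 14 were 6 of APOA1, 3 of APOA2, 3 of APOB and 2 of APOC1. Probe sets of 1 gene are repeat readings of it, so these counts do not stand for separate genes. In 16 the groups did not overlap, against 26.7% of all probe sets. Leaving out silenced replicate 1, 2 or 3 or control replicate 3 lowered the number of higher ones to 9. The single lower probe set, that of APOH, was no longer called (0) without silenced replicate 2 or 3 or control replicate 2 or 3, where 2, 2, 1 and 1 member probe sets were lower at an unadjusted p under 0.05 in limma, and the count was 2 without control replicate 1. Of the 24 probe sets 11 end in _x_at, the type whose probes can match other transcripts, and 2 end in plain _at, 1 each for APOB and APOC1. The other 8 genes therefore have no value from a plain _at probe set. Probe sets called specific here are those of the plain _at suffix alone. The 6 member probe sets that end in _a_at were not counted among them.

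**Figure D2:**
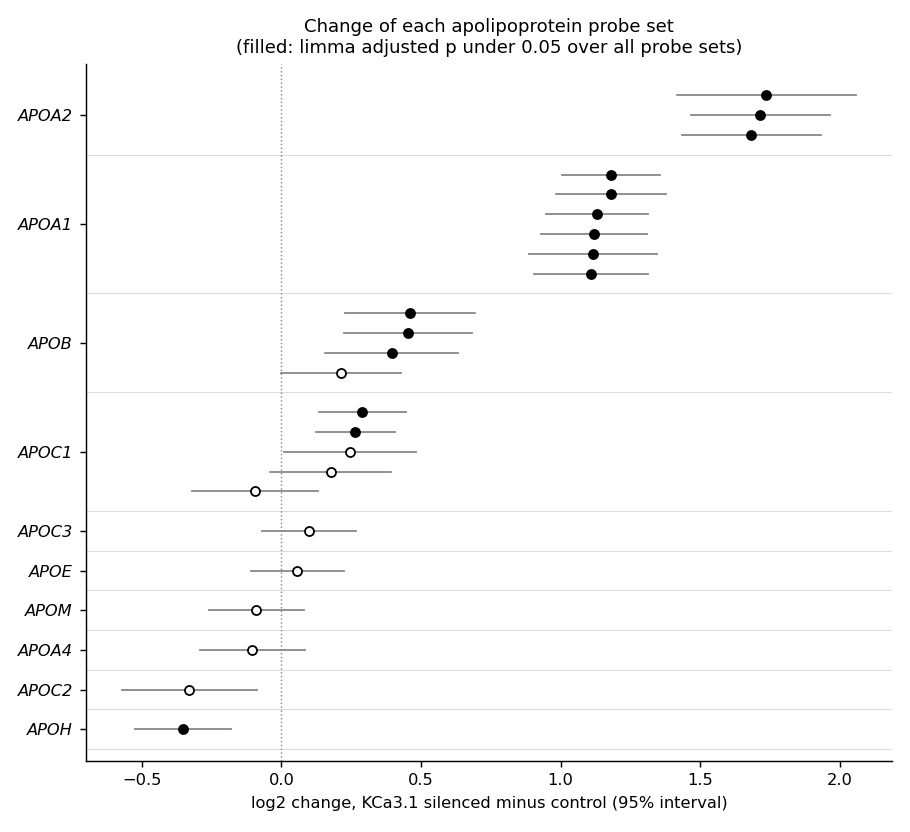
Log2 change of each of the 24 probe sets, arrays labelled silenced minus control (horizontal axis, with the 95% interval), grouped by gene. Filled points passed the test over all probe sets. The 6 probe sets of APOA1 and the 3 of APOA2 lie close together, whereas the 5 of APOC1 run from -0.10 to 0.29.

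The genes of 2 chromosomal clusters, 3 in each, can be set beside their neighbours. On 11q23 the order is APOA5, APOA4, APOC3 and APOA1, flanked by ZPR1 and BUD13 on one side and by SIK3 on the other. APOA1 was the one apolipoprotein gene called there. Its neighbours APOC3, APOA4 and APOA5, the last an activator of triglyceride hydrolysis, had changes of 0.10, -0.10 and 0.02 and did not pass. SIK3, a salt-inducible kinase gene that overlaps an antisense transcript of APOA1, was 1.2-fold higher (log2 change 0.26 with SE 0.064, adjusted p = 0.0277 by limma). That call was lost without any single silenced replicate and without control replicates 1 and 3, where the change lay between 0.22 and 0.28. ZPR1 and BUD13 had changes of 0.11 and 0.01.

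Within each array APOA1 was set against its neighbours to test whether they changed unequally. The difference of their changes was 1.04 for APOA1 minus APOC3, with the silenced arrays at 0.259 to 0.281 and the control arrays at -0.831 to -0.731. It was 1.24 for APOA1 minus APOA4. Each gave a two-sided exact permutation p = 0.1, the smallest that 3 arrays against 3 allow, so that no pair could pass the threshold, and 0.15 after adjustment over the 6 pairs examined. APOC3 minus APOA4 gave 0.20 with overlapping groups (exact permutation p = 0.3, adjusted 0.3).

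On 19q13 APOE, APOC1 and APOC2 stand in this order, after BCAM, NECTIN2 and TOMM40 and before CLPTM1. None of the 3 apolipoprotein genes was called (0 at the adjusted threshold, with APOC1 and APOC2 at unadjusted p = 0.0167 and 0.00909 in limma). Within arrays APOC1 minus APOC2 gave 0.51, with the silenced arrays at 0.064 to 0.214 and the control arrays at -0.612 to -0.14 (exact permutation p = 0.1, adjusted 0.15). APOE minus APOC1 gave -0.12 (exact permutation p = 0.1, adjusted 0.15) and APOE minus APOC2 gave 0.39 (exact permutation p = 0.2, adjusted 0.24). Of the flanking genes NECTIN2, which encodes an adhesion protein, fell by 0.23 on the log2 scale, with SE 0.059 and an adjusted p = 0.0366 by limma, a call lost without any single silenced replicate and without control replicates 2 and 3, where the change lay between -0.23 and -0.20. BCAM, TOMM40 and CLPTM1 did not pass, with changes of -0.07, -0.06 and 0.13.

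**Figure D3:**
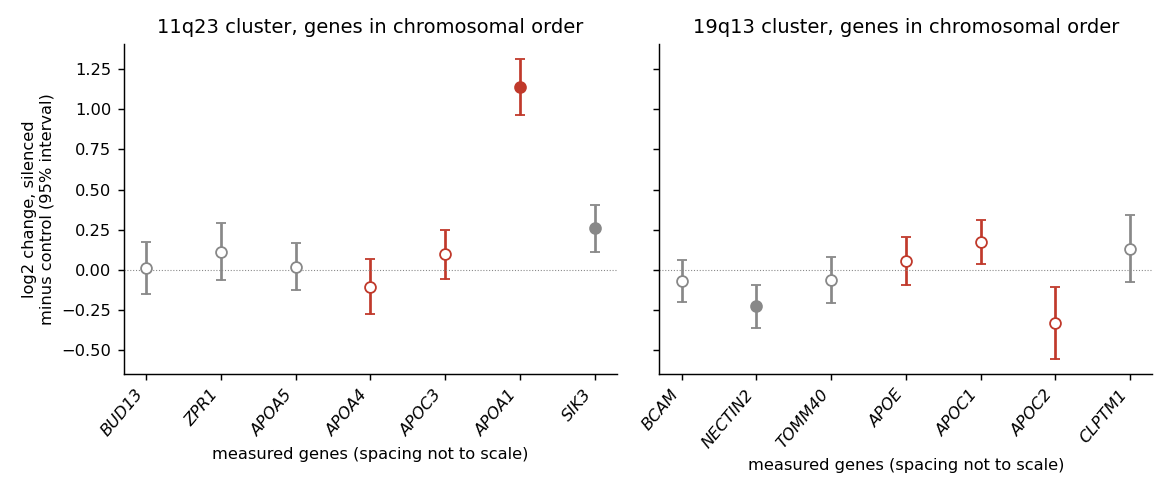
Log2 change, arrays labelled silenced minus control, with its 95% interval (vertical axis), of the measured genes of the 11q23 cluster (left) and the 19q13 cluster (right) in chromosomal order. Apolipoprotein genes described here are red, other genes grey, and filled points passed the test. On 11q23 APOA1 stands at 1.14 while APOC3 and APOA4 lie at 0.10 and -0.10.

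Of 31 measured genes listed for lipoprotein assembly and secretion 8 were higher and 1 was lower, while 22 did not pass, with a median log2 change of 0.11. MTTP, the microsomal triglyceride transfer protein that loads lipid onto nascent APOB, stood at 0.348, 0.413 and 0.311 in the arrays labelled silenced, against -1.369, -1.403 and -1.128 in the control arrays. The groups lay far apart, and MTTP was 3.15-fold higher (log2 change 1.66 with SE 0.079, adjusted p = 5.4e-06 by limma), the 15th largest rise of all genes, close behind APOA2. DGAT2, which makes triglyceride for these particles, was 1.74-fold higher, and ABCA1, which exports cholesterol to APOA1, was 1.49-fold higher. PLA2G12B, ACSL1 and MIA3, the last a receptor for the export of large cargo from the endoplasmic reticulum, rose by 0.46, 0.35 and 0.34. SAR1A, a coat GTPase, was also higher, by 0.24. So was AGTR1, by 0.42, an angiotensin receptor that the list counts although it is no part of the assembly machinery.

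SAR1A was not called without any single silenced replicate or control replicate 1 or 3, at 0.19 to 0.27, and AGTR1 was not called without silenced replicate 1 or 3 or control replicate 1 or 3, at 0.36 to 0.41. The 1 lower gene, P4HB, encodes the disulphide isomerase that forms the small subunit of the transfer protein. It fell by 0.27 on the log2 scale, with SE 0.059 and an adjusted p = 0.0171 by limma. The call was lost without silenced replicate 2 or 3 or control replicate 2, at changes of -0.23, -0.28 and -0.23, which left a count of 0, with 2, 2 and 1 genes of the list lower at an unadjusted p under 0.05.

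**Figure D4:**
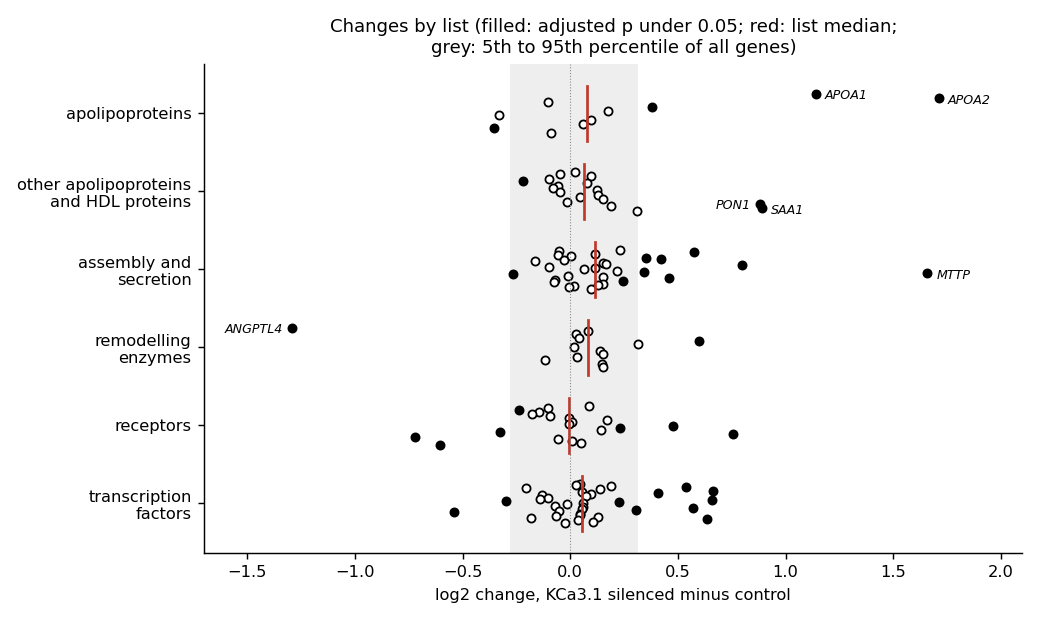
Log2 change, arrays labelled silenced minus control (horizontal axis), of each measured gene of the apolipoproteins and of 5 related lists. Filled points passed the test, red bars are list medians, and the grey band runs from the 5th to the 95th percentile of all genes, -0.277 to 0.312. APOA2, APOA1 and MTTP lie furthest to the right and ANGPTL4 furthest to the left.

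Of 18 further apolipoproteins and proteins carried on high density lipoprotein 2 were higher, 1 was lower and 15 did not pass, with a median of 0.06. PON1, the antioxidant esterase of high density lipoprotein, was 1.84-fold higher, at 0.19, 0.16 and 0.111 in the arrays labelled silenced and -0.678, -0.829 and -0.672 in the control arrays. Its 2 probe sets disagreed: one had a change of 1.46 (limma adjusted p = 3.1e-05), and the other a change of 0.30 that did not pass, with overlapping groups (limma adjusted p = 0.185). SAA1, an acute-phase apolipoprotein, was 1.86-fold higher, but it was read by 1 probe set and is nearly identical in sequence to SAA2. The change of SAA2, 0.31 with overlapping groups, did not pass (limma adjusted p = 0.234). APOL2, a member of the APOL family, fell by 0.22 (SE 0.062, limma adjusted p = 0.0498). That call was lost without any single silenced replicate or control replicate 2 or 3, at -0.22 to -0.17, leaving 0 lower genes, with 1 lower at an unadjusted p under 0.05 in each case. Of 13 enzymes that remodel lipoproteins and their regulators 1 was higher, 1 was lower and 11 did not pass, with a median of 0.08. ANGPTL4, an inhibitor of lipoprotein lipase, stood at -0.183, -0.33 and -0.488 in the arrays labelled silenced, against 0.643, 1.118 and 1.121 in the control arrays, and was 2.45-fold lower (log2 change -1.29 with SE 0.132, adjusted p = 0.000302 by limma). HP, which encodes haptoglobin, a hemoglobin-binding plasma protein that travels with APOA1, was 1.51-fold higher, although a close paralogue in sequence makes its probe sets uncertain. That paralogue, HPR, had a change of 0.31 with overlapping groups and did not pass (limma adjusted p = 0.14). The count of higher genes in this list was 2 without control replicate 2.

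Among 20 lipoprotein receptors and their regulators 3 were higher and 4 lower, while 13 did not pass, with a median of -0.007. OLR1, higher by 0.23, and DAB2, lower by 0.24, were not called without any single silenced replicate or control replicate 2 or 3. VLDLR, the very low density lipoprotein receptor, which binds APOE-bearing particles, fell by 0.60 on the log2 scale, with SE 0.066 and an adjusted p = 0.000443 by limma. SDC1 and SDC2 encode heparan sulphate proteoglycans, the first of which captures remnant particles on hepatocytes, and they moved in opposite directions, with SDC1 1.69-fold higher and SDC2 1.65-fold lower. Of 35 transcription factors and coregulators listed for apolipoprotein promoters 8 were higher and 2 lower, while 25 did not pass, with a median of 0.05. Among the 8 was PPARGC1A, a coactivator that does not bind DNA itself, which rose by 0.57. NR5A2, PROX1 and CEBPD were also among them, at 0.23, 0.30 and 0.54. NR5A2 was not called whichever array was left out. PROX1 was not called without silenced replicate 1 or 2 or control replicate 2 or 3, nor CEBPD without silenced replicate 3. FOXA1, a forkhead factor of hepatocytes, the orphan receptor NR2F1 and the thyroid hormone receptor THRB were 1.58-fold, 1.58-fold and 1.55-fold higher. The 2 lower genes were RORA, which fell by 0.54, and NR2F6, which fell by 0.30 and was not called without silenced replicate 2 or 3 or control replicate 2 or 3, at -0.29 to -0.26. The shares called in the 5 lists were 16.7% for the further apolipoproteins, 29% for assembly, 15.4% for remodelling, 35% for receptors and 28.6% for transcription factors, beside 13.3% of all genes, and no list was tested as a set. The shares for assembly and for transcription factors count AGTR1 and PPARGC1A. These lists were chosen with earlier results of these data known, so an excess over the share of all genes is no test of them.

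The genes whose pattern over the 6 arrays lay nearest to APOA2, by the root mean square difference after each gene was centred on its mean, were ELOVL6, BTF3L4, TDO2, RPUSD4 and SERPINC1, at 0.109 to 0.16 on the log2 scale. ELOVL6 elongates fatty acids, TDO2 degrades tryptophan and SERPINC1 encodes antithrombin. The nearest to APOH were TMEM250, TRIM8, PYCR1, CD99 and GCHFR, at 0.019 to 0.03, in a range of change where many genes lie close together. GCHFR, with a change of -0.35, was not called without silenced replicate 2 or 3 or control replicate 2 or 3, at -0.35 to -0.28.

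Markers of 6 cell types were examined beside the apolipoprotein genes. Of 11 measured hepatocyte markers 6 were higher, 0 lower and 5 did not pass in limma (7 higher and 1 lower at an unadjusted p under 0.05), and their summed values ran from 1.422 to 1.741 in the arrays labelled silenced and from -2.174 to -1.239 in the control arrays. AFP, the fetal serum protein, rose by 0.70 (SE 0.068, limma adjusted p = 0.00024), while albumin (ALB) and transthyretin (TTR) did not pass, with changes of 0.16 and 0.06. Likewise AHSG, RBP4 and TF did not pass, at 0.17, 0.12 and -0.19, so TF lay on the other side of 0. AMBP and FGB, which encode plasma proteins, were among the 6, and AMBP was not called whichever of the 6 arrays was left out, at 0.19 to 0.24, nor FGB without any single silenced replicate or control replicate 2 or 3, at 0.18 to 0.22. Of 5 cholangiocyte markers 4 were lower (KRT7, KRT19, EPCAM and SOX9, with changes from -0.50 to -0.31), and 1, CFTR, did not pass. Their summed values ran from -1.038 to -0.545 in the arrays labelled silenced and from 0.49 to 0.825 in the control arrays. EPCAM was not called without silenced replicate 1 or 2 or control replicate 2 or 3, at -0.48 to -0.35, nor SOX9 without any single silenced replicate or control replicate 2 or 3, at -0.33 to -0.26.

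The other 4 marker lists had 1 called gene or none. Of 6 fibroblast markers 1, the collagen gene COL1A2, was higher by 0.55 (limma adjusted p = 0.00202), while 1 of its 6 probe sets had a change of 0.04 with overlapping groups. The summed fibroblast values ran from -0.068 to -0.017 in the arrays labelled silenced and from -0.598 to -0.518 in the control arrays. The gap between these sums is mostly that of COL1A2, since the other fibroblast markers had changes between -0.08 and 0.08 and did not pass. Of 6 leukocyte markers 1, the lysozyme gene LYZ, was higher by 0.34 (limma adjusted p = 0.0217) and was not called without silenced replicate 3 or control replicate 1 or 3, at 0.26 to 0.34. Leukocyte sums overlapped, at 0.029 to 0.557 in the arrays labelled silenced and -0.206 to 0.224 in the control arrays. Of 5 enterocyte markers 1, VIL1, which encodes the actin-binding protein villin, was lower, with a change of -0.26 (limma adjusted p = 0.0164). Only 1 of its 3 probe sets passed, at -0.46, and the gene was not called without silenced replicate 1 or 2 or control replicate 2, at -0.25 to -0.23, nor with specific probe sets, at -0.06. Enterocyte sums overlapped as well, at -0.327 to -0.044 in the arrays labelled silenced and -0.483 to -0.035 in the control arrays. Of 5 endothelial markers 0 passed in limma, with 0 at an unadjusted p under 0.05, and the sums ran from 0.08 to 0.22 in the arrays labelled silenced and from -0.15 to 0.439 in the control arrays. The shares called were 54.5% for hepatocyte, 80% for cholangiocyte, 16.7% for fibroblast, 16.7% for leukocyte, 20% for enterocyte and 0% for endothelial markers, beside 13.3% of all genes. Centred values do not show which markers were absent, and the part of these markers in the apolipoprotein changes was not tested. All 6 arrays are labelled as Huh7 cells, and no label names another cell type. A changed marker is therefore a change of that transcript and no count of cells of the type it is listed for. In bulk RNA, more cells of a kind and more RNA in each cell cannot be told apart.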

How the data were processed

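The authors deposited log2 values made with RMA (named without a version), per the submitters' processing notes. RMA corrects background, normalises arrays by quantiles and summarises each probe set. Judging by the deposited values, each probe set was then centred near 0. The baseline is not the 6 arrays alone, since their median was 0 in only 11.7% of probe sets. Centring cancels in differences, which are silenced minus control. The log base follows RMA's usual output. Depth has no meaning for arrays, and 3 per group limit precision.

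Of 49395 probe sets 102 controls were left out. Among the rest, 44988 had 1 symbol, 1832 several and 2473 none, and a gene was given the average over its single-symbol probe sets. No symbol needed updating (0). Groups were compared with limma 3.58.1 in R 4.3.3 (lmFit, eBayes, no block), adjusted by Benjamini-Hochberg over all 18132 genes or 49293 probe sets. The code was tested on simulated data. Pairs of clustered genes used exact permutation tests.

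Of 134 entries in 5 pathway lists 117 were measured; the others are not analysed here. Genes named are the 10 members, KCNN4, 3 largest called changes per list, cluster neighbours, ALB, AFP, TTR and the 5 nearest patterns to the largest rise and fall. Further called list and marker genes were named after their values were seen. Members and lists were chosen with earlier results of these data known. Alternatives were another gene summary, specific probe sets (those of the plain _at suffix alone), quantile normalisation, robust eBayes, a replicate block and leaving out each array.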

Additional observations from a re-analysis of the deposited data

How the results depend on the processing

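No apolipoprotein gene changed direction under any alternative run, and APOA1 and APOA2 were called under every alternative that measured them. With specific probe sets only APOB and APOC1 were measured, and the counts of higher and lower apolipoprotein genes were 0 and 0 by limma (1 and 0 at an unadjusted p under 0.05). APOB then had a change of 0.21 (adjusted p = 0.303). That setting left out the 6 member probe sets that end in _a_at. Adjusted over all probe sets, those of APOA2, APOB, APOC1 and APOH were called, and that of APOM was not. At 2-fold or more the count of lower genes was 0, with 2 lower at an unadjusted p under 0.05. Leaving out each array in turn gave 3 to 3 higher and 1 to 2 lower apolipoprotein genes, and 9 to 12 higher and 0 to 2 lower probe sets. The same gave, higher and then lower, 2 to 2 and 0 to 1 for the further apolipoproteins, 6 to 8 and 0 to 1 for assembly, 1 to 2 and 1 to 1 for remodelling, 2 to 3 and 3 to 4 for receptors, and 6 to 7 and 1 to 2 for transcription factors. The count of lower further apolipoproteins (APOL2 alone) was 0 with quantile normalisation, robust eBayes or the replicate block, with 1 at an unadjusted p under 0.05 each time. KCNN4 lay between -0.045 and 0.055 without each array. The cluster neighbours APOA5 and BUD13, neither of them called, also crossed 0, at -0.033 to 0.062 and -0.044 to 0.059. PYCR1, one of the genes patterned like APOH, reversed to 0.105 with specific probe sets (adjusted p = 0.731).

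The replicate numbers did not pair the arrays: deviations of same-numbered arrays correlated at -0.036, -0.058 and -0.029, and no array correlated best with its own number. Silenced replicate 2 with control replicate 1, 3 with 2 and 1 with 3 correlated at 0.311, 0.354 and 0.305, and whether the arrays are linked in that other way was not tested. With the replicate block the count of lower apolipoprotein genes was 2, since APOC2, at -0.33, was called (limma adjusted p = 0.0231), and the calls of the other 9 apolipoprotein genes were as without it. A filter on dim probe sets was not run, because centred values hold no level. The cause of these shifts was not tested.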
